A study of Mus musculus with 6 samples.

Results

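The regulators of pre-mRNA splicing encoded by Luc7l, Luc7l2, Srsf10, Hnrnpa3, Celf1 and Qk are described here through the exon bins of these 6 genes in the 2 deposited tables of changed exon usage after knockdown of the long noncoding RNA Pnky or of the splicing repressor Ptbp1 in mouse neural stem cell cultures. An exon bin is an exon or a part of one, numbered within its gene; whether the numbers follow the transcript or the chromosome is not known here. All rows of these 6 genes were taken, which gave 12 of 1089 listed bins and 6 of 702 listed genes. The shPnky table held 7 of these bins in 5 genes and the shPtbp1 table held 8 in 3 genes. Only 3 bins, bin 9 of Luc7l and bins 8 and 9 of Luc7l2, stood in both tables.

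The cells came from the ventricular-subventricular zone, the germinal niche of the postnatal forebrain, of C57/B6 mice at postnatal day 5 to 7. They were grown in medium with 5% fetal bovine serum, pituitary extract, 20 ng/mL EGF and 20 ng/mL FGF, carried a hairpin vector with a GFP or mCherry marker, and were sorted for that fluorescence. All 3 groups carried a hairpin: against luciferase in shCtrl, against Pnky in shPnky and against Ptbp1 in shPtbp1. Each group had 2 poly(A)-selected, strand-specific libraries. The labels do not say that the 2 libraries of a group came from separate animals or cultures, so a p-value here reflects no more than how far these libraries differ, and that may be technical.

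The spliceosome recognises the start of an intron through the U1 small nuclear ribonucleoprotein. Luc7-like proteins are relatives of a yeast U1 component and influence which 5′ splice sites are chosen. SR proteins and hnRNP proteins bind exons and introns and favour or hinder nearby splice sites, and CELF and Quaking proteins do so in a cell-type-dependent way. Many such regulators are themselves alternatively spliced, often with an isoform that is degraded. Pnky is a nuclear RNA of neural stem cells that binds the PTBP1 protein, which holds back many neuronal exons.

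The counts of the listed bins summed to between 1727096 and 2403866 reads per library in the shPnky table and between 3514859 and 3920040 in the shPtbp1 table. They are sums over called bins alone, not sizes of whole libraries. The targeted gene was lower under its hairpin: reads in bin 13 of Ptbp1 numbered 22334 and 19594 for shCtrl, against 4967 and 4961 for shPtbp1. No bin of Pnky was listed, so that knockdown could not be checked here. Of markers of neural stem cells and astrocytes, 5 of 12 had a listed bin in either table, as had 3 of 8 neuroblast markers, 0 of 8 oligodendrocyte-lineage markers and 0 of 8 microglial and vascular markers. Only bins called for changed usage are listed, so a marker without a listed bin may still have been expressed. How many of these markers the authors tested is not known here, so the counts do not show which cell types were present. Bin 2 of the glial filament gene Gfap, with 39928 and 34852 reads in shCtrl, placed astroglial transcripts in the cultures.

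The bins were chosen by the authors' adjusted p, under 0.01 in a contrast, so everything that follows on a knockdown against shCtrl is a description, with no new test. By that rule 0.155% of 160603 tested bins were listed for shPnky and 0.598% of 160290 for shPtbp1. Among the 12 bins, those nearest the threshold were Celf1 bin 11 (adjusted p = 0.00213 for shPtbp1) and Luc7l bin 4 (adjusted p = 0.00222 for shPnky) in the authors' deposited tables. Bins of these genes above the threshold were not analysed here. Usage means the reads of a bin relative to its own gene, and the authors' log2 fold compares fitted usage values, knockdown over shCtrl. These fitted values are not on the scale of read ratios. For Luc7l2, the log2 ratio of bin 9 to bin 8 was -2.35 in shCtrl and -2.97 in shPtbp1. The authors' log2 folds for shPtbp1 were -0.23 for bin 9 and 0.03 for bin 8. The sizes of these folds are therefore not comparable with those of ratios or scaled counts. Scaled counts are reads divided by a library size from the trimmed mean of M-values (TMM) over the listed bins of a table, so they depend on bins that were already called.

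**Figure D1:**
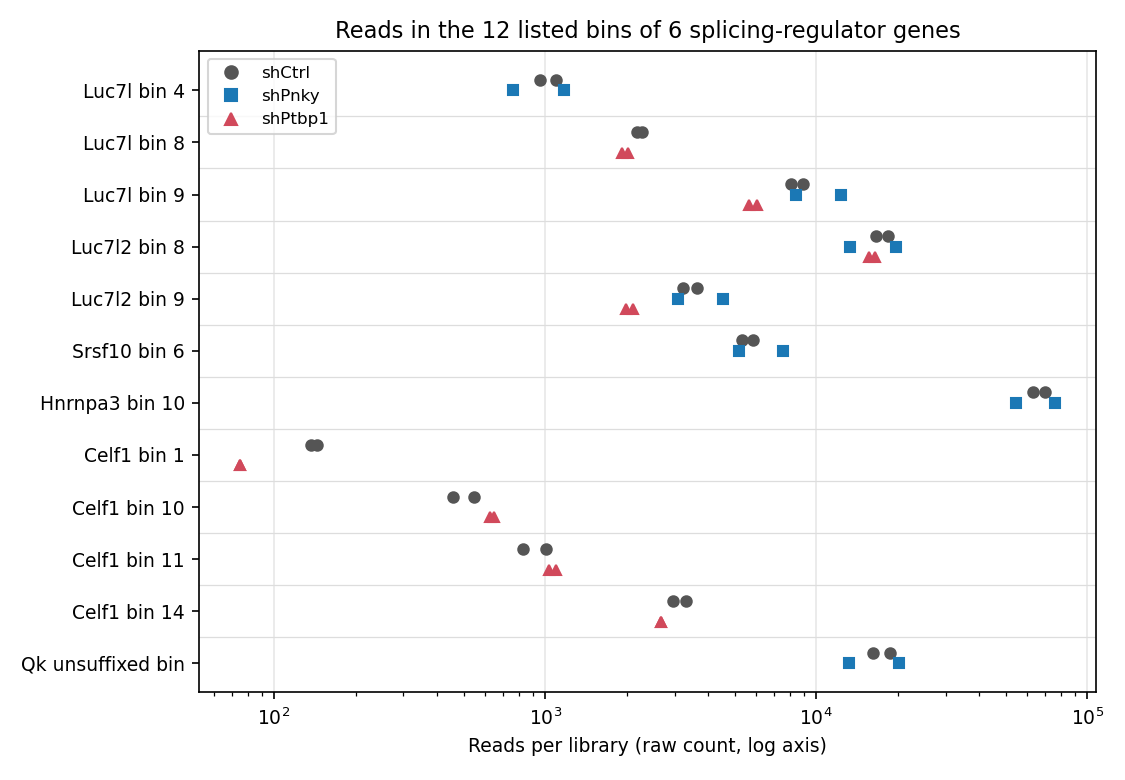
Raw reads per library (log axis) in each of the 12 bins, with circles for shCtrl, squares for shPnky and triangles for shPtbp1. A group is drawn only where the bin is in that group's table; reads span 75 in Celf1 bin 1 under shPtbp1 to 76198 in Hnrnpa3 bin 10 under shPnky.

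Shared bins of the 2 Luc7-like genes changed usage in opposite directions in the 2 knockdowns. Luc7l2 (Entrez 192196) gave the clearest case, because the same 2 bins were listed in both tables. The reads of bin 9 numbered 3626 and 3237 (shCtrl), 4535 and 3085 (shPnky) and 1991 and 2114 (shPtbp1). Those of bin 8 numbered 18337 and 16585 (shCtrl), 19754 and 13339 (shPnky) and 16459 and 15670 (shPtbp1). Raw reads of bin 8 and those of bin 9 each overlapped between shCtrl and shPnky, whose first library was deeper than its second.

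The ratio of bin 9 to bin 8 needs no scaling between libraries. It was 0.198 and 0.195 in shCtrl, 0.230 and 0.231 in shPnky, and 0.121 and 0.135 in shPtbp1. All 3 groups were apart on this measure, with shPnky highest, shCtrl in the middle and shPtbp1 lowest. Both bins had been called for changed usage against shCtrl, so these gaps follow in part from that choice. As a share of the reads in both bins, bin 9 was 16.4% ± 0.13 (SD, n = 2) in shCtrl, 18.7% ± 0.080 (SD, n = 2) in shPnky and 11.3% ± 0.77 (SD, n = 2) in shPtbp1. The 95% Wilson interval of the share was 15.8% to 16.9% in the second shCtrl library and 16.0% to 17.0% in the first. It was 18.2% to 19.2% and 18.2% to 19.4% in the shPnky libraries, and 10.4% to 11.2% and 11.4% to 12.4% in the shPtbp1 libraries. These intervals cover counting error only, and those of the 2 shPtbp1 libraries (10.8% and 11.9%) did not overlap each other.

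In the authors' deposited tables, the usage of Luc7l2 bin 9 rose in shPnky (log2 fold 0.06, adjusted p = 1.16e-05) and fell in shPtbp1 (log2 fold -0.23, adjusted p = 2.29e-12). That of bin 8 fell in shPnky (log2 fold -0.03, adjusted p = 2.05e-08) and rose in shPtbp1 (log2 fold 0.03, adjusted p = 1.44e-22) in the authors' deposited tables. The comparisons share the 2 shCtrl libraries. Usage and abundance did not move alike. In scaled counts bin 8 was 0.913 times shCtrl in shPnky and 0.883 times shCtrl in shPtbp1, so its higher usage in shPtbp1 went with fewer reads than in shCtrl. Bin 9 was 1.07 times shCtrl in shPnky and 0.574 times shCtrl in shPtbp1. In bulk RNA, fewer cells of a type and less RNA per cell cannot be told apart. In the same scaled counts for shPtbp1, the leading bins of the astroglial and stem cell markers with a listed bin differed from shCtrl by -0.32 (Gfap), -0.20 (Egfr), 0.26 (Prom1) and 0.81 (Aldoc) on the log2 scale. Those of the 3 listed neuroblast markers were all lower, by -1.42 (Ncam1), -0.63 (Dclk1) and -0.22 (Meis2). A leading bin did not stand for its whole gene. In shPtbp1 the difference for Ncam1 was 0.56 in bin 4 but -1.76 in bin 2. For Dclk1 it was 0.14 in bin 19 but -0.81 in bin 1. The unsuffixed bin of Egfr was higher by 0.20, opposite to its leading bin. For shPnky the leading bins differed by -0.70 (Dclk1), -0.97 (Prom1), -0.004 (Gfap) and 0.19 (Vim). For shPnky too, other Dclk1 bins went both ways, with -0.84 for bin 1 and 0.19 for bin 19. These are single bins of genes chosen for a change in usage, and the part of either cell type in the Luc7-like values was not tested.

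Luc7l (Entrez 66978), the paralog of Luc7l2, had bin 9 in both tables and 1 further bin in each. The reads of bin 9 numbered 8946 and 8072 (shCtrl), 12307 and 8403 (shPnky) and 6040 and 5641 (shPtbp1). Its usage rose in shPnky (log2 fold 0.04, adjusted p = 7.82e-17) and fell in shPtbp1 (log2 fold -0.07, adjusted p = 9.96e-11) in the authors' deposited tables. Scaled counts of this bin were 1.17 times shCtrl in shPnky and 0.659 times shCtrl in shPtbp1. As with Luc7l2 bin 9, shPnky lay above shCtrl and shPtbp1 below it, and the scaled groups did not overlap, although raw reads of shCtrl and shPnky did.

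Luc7l bin 4 was listed for shPnky alone, with 1097 and 961 reads for the controls against 1169 and 760 for shPnky. Its ratio to bin 9 fell from 0.121 ± 0.0025 to 0.0927 ± 0.0032 (SD, n = 2), and the authors' deposited table lists lower usage, with a log2 fold of -0.12. The raw reads of bin 4 overlapped between the groups, whereas its ratio to bin 9 did not. Both bins had been called for changed usage in this contrast.

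Luc7l bin 8 was listed for shPtbp1 alone, with 2284 and 2177 reads for the controls against 2018 and 1913 for shPtbp1. Its ratio to bin 9 rose from 0.263 ± 0.010 to 0.337 ± 0.0035 (SD, n = 2), and the authors' deposited table gave a log2 fold of usage of 0.08 (adjusted p = 0.000345). Its scaled count was nevertheless 0.845 times that of shCtrl: bin 9 had lost a larger part of its reads. Luc7l and Luc7l2 are related in sequence and no source used here says how reads that match both were counted.

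**Figure D2:**
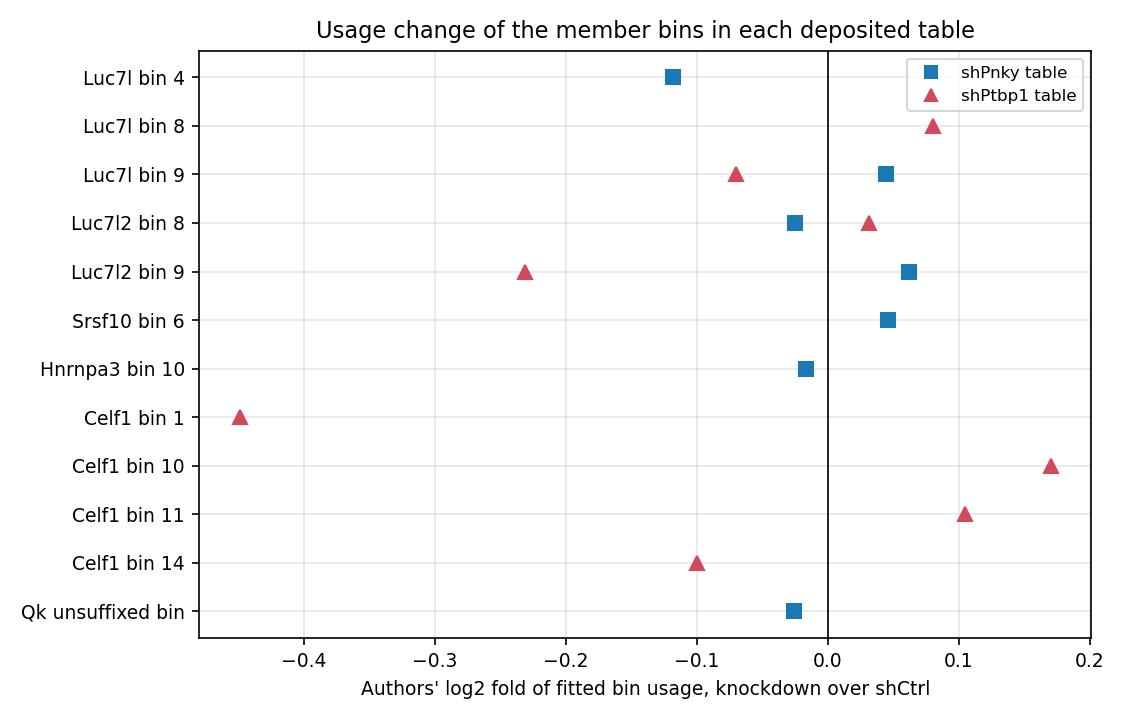
The authors' log2 fold of fitted usage (knockdown over shCtrl) for each member bin, with squares for the shPnky table and triangles for the shPtbp1 table. Luc7l bin 9 and Luc7l2 bins 8 and 9 have a symbol on each side of 0; the other 9 bins have 1 symbol.

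Srsf10 (Entrez 14105) encodes an SR-related protein that acts as a splicing repressor when it is dephosphorylated. It had 1 listed bin, bin 6, in the shPnky table, with 5854 and 5322 reads for the controls against 7515 and 5207 for shPnky. The authors' deposited table lists higher usage in shPnky (log2 fold 0.05, adjusted p = 2.16e-11). Scaled counts were 5584 and 5688 in shCtrl and 6259 and 6134 in shPnky, a log2 difference of 0.14. Both scaled shPnky values lay above both of shCtrl, although the raw values overlapped.

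Hnrnpa3 (Entrez 229279) encodes an hnRNP of the A/B family, which binds RNA widely and tends to oppose SR proteins at splice sites. Its bin 10 was the deepest of the 12 bins, with 69869 and 63221 reads for the controls against 76198 and 54585 for shPnky. The authors' deposited table lists lower usage in shPnky (log2 fold -0.02, adjusted p = 1.57e-05), the smallest fold of any of the 15 rows. Scaled counts were 66640 and 67567 in shCtrl and 63461 and 64299 in shPnky, which is 0.952 times shCtrl. The groups were apart after scaling. Hnrnpa3 has close paralogs, so the assignment of its reads is uncertain.

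Celf1 (Entrez 13046) encodes a CUG-binding protein that regulates alternative splicing and mRNA decay. It was listed for shPtbp1 alone, with 4 bins, of which 2 gained and 2 lost usage. Bin 14, the deepest, went from 3317 and 2965 reads in shCtrl to 2675 and 2671 in shPtbp1. Its share of the reads in the 4 bins fell from 66.9% ± 0.99 to 60.1% ± 0.85 (SD, n = 2). Bin 1 went from 144 and 137 reads to 75 and 75, and its share from 3.0% ± 0.18 to 1.69% ± 0.022 (SD, n = 2). Its fold in the authors' deposited table was the largest among the members (log2 fold -0.45, adjusted p = 1.12e-05), on the fewest reads.

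The other 2 Celf1 bins went up. The reads of bin 10 were 545 and 456 in shCtrl, against 624 and 650 in shPtbp1. For bin 11 they were 1003 and 827, against 1034 and 1094. The share of bin 10 went up from 10.6% ± 0.34 to 14.3% ± 0.23, and that of bin 11 from 19.4% ± 0.82 to 23.9% ± 0.64 (SD, n = 2). Relative to bin 14, bin 10 went from 0.159 ± 0.0074 to 0.238 ± 0.0071, bin 11 from 0.291 ± 0.017 to 0.398 ± 0.016, and bin 1 from 0.0448 ± 0.0020 to 0.0281 ± 0.000030 (SD, n = 2). In each of these 3 ratios the 2 groups were apart, which follows in part from the choice of bins called for changed usage in this contrast. Scaled counts of bin 11 were 971 and 892 in shCtrl and 1000 and 1085 in shPtbp1. That gap between the groups was smaller than the distance between the 2 shPtbp1 libraries. The authors' deposited table gave log2 folds of 0.17 for bin 10, 0.11 for bin 11 and -0.10 for bin 14.

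**Figure D3:**
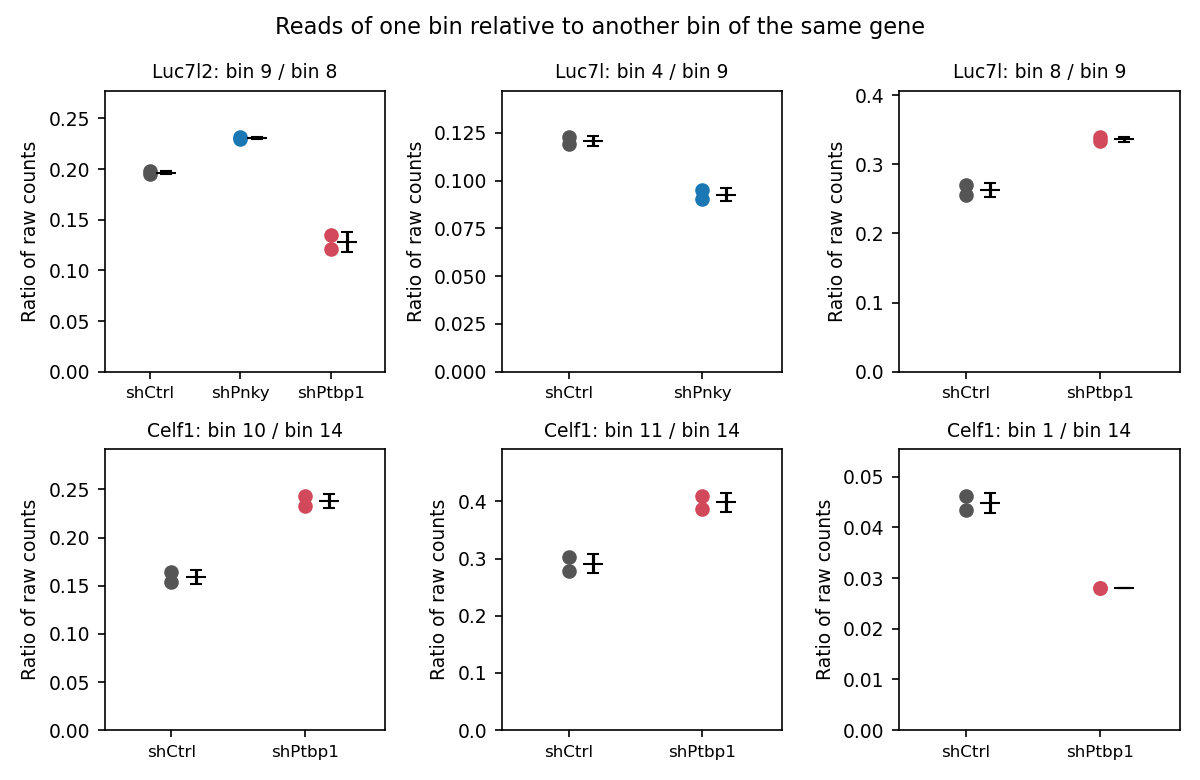
Reads of one bin divided by those of another bin of the same gene, per library (points), with the mean and SD of 2 libraries (bars beside them) and the axis starting at 0. For Luc7l2, shPnky (0.230 and 0.231) lies above shCtrl (0.198 and 0.195) and shPtbp1 (0.121 and 0.135) below it; a group without the bins in its table is not drawn.

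Qk (Entrez 19317) encodes Quaking, a STAR-family RNA-binding protein of glia and neural stem cells. Its listed bin is the one without a number, and had 18640 and 16123 control reads, against 20209 and 13162 for shPnky. The authors' deposited table lists lower usage in shPnky (log2 fold -0.03, adjusted p = 0.000231). Scaled counts were 17779 and 17232 in shCtrl and 16831 and 15505 in shPnky. The groups did not overlap, but the gap between them was smaller than the distance between the 2 shPnky libraries.

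By their medians, bins of the 6 genes were deeper than the listed bins as a whole and had smaller folds, with exceptions such as Celf1 bin 1, deeper than only 14.3% of the listed shPtbp1 bins and with a larger absolute fold than 81.6% of them. For shPnky the median mean count was 9432 over the 7 member bins and 1713 over all 249 listed bins, and the median absolute log2 fold was 0.04 against 0.11. For shPtbp1 it was 2420 over the 8 member bins against 946 over all 958, with a median absolute log2 fold of 0.10 against 0.16. Usage was higher in 3 and lower in 4 bins for shPnky, against 0.0741% and 0.0809% of all tested bins. It was higher in 4 and lower in 4 for shPtbp1, against 0.322% and 0.268%. Nothing is read from these counts, since the calls chose the bins. Scaled counts of the groups did not overlap in 7 of 7 and 8 of 8 member bins, where 90.4% and 92.4% of all listed bins had no overlap, so the members did not stand out in this respect.

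The knockdowns were then compared with each other directly, in the 118 bins listed in both tables. Reads of Luc7l2 bin 9 were higher in shPnky than in shPtbp1 by a log2 difference of 0.85 (SE 0.048, edgeR glmQLFTest, adjusted p = 8.59e-06), or 1.81-fold. Those of Luc7l bin 9 were higher by 0.79 (SE 0.042, edgeR adjusted p = 6.33e-06), a 1.73-fold difference. Each SE was back-calculated as the absolute log2 difference divided by the square root of the F statistic, so it is approximate. Both shPnky libraries lay above both shPtbp1 libraries in each: scaled counts of Luc7l bin 9 were 10180 and 9631 against 5912 and 5562. No difference was detectable for Luc7l2 bin 8, with a log2 difference of 0.004 and an interval of 2 SE from -0.07 to 0.08. In all, 74 of 118 bins (62.7%) passed an adjusted p under 0.05 in this test, 39 of them higher in shPnky (33.1% of the bins). The members' differences ranked 13 and 15 by size, and that of Luc7l2 bin 8 ranked 116.

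The usage test set each bin against the bins of its gene that were listed in both tables, which for Luc7l2 are bins 8 and 9 alone. Relative to that pair, Luc7l2 bin 9 was used more in shPnky than in shPtbp1 by 0.73 on the log2 scale (edgeR diffSpliceDGE, adjusted p = 4.24e-07). It had the second smallest p of 65 bins in 18 genes, of which 18 (27.7%) passed, 7 of them (10.8% of the bins) with more use in shPnky. Bin 8 was used less by 0.13 (log2 usage -0.13, edgeR adjusted p = 0.0339). These are 2 views of a single ratio, and the other bins of Luc7l2 did not enter it. The call for bin 8 was lost without the first or the second shCtrl library, the first shPnky or the first shPtbp1 library (edgeR adjusted p of 0.0973, 0.0976, 0.0602 and 0.0584), and that for bin 9 was not lost without any 1 library. Since these bins had been listed with opposite signs against shCtrl, a difference between the knockdowns follows in part from how they were chosen and is no independent evidence.

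**Figure D4:**
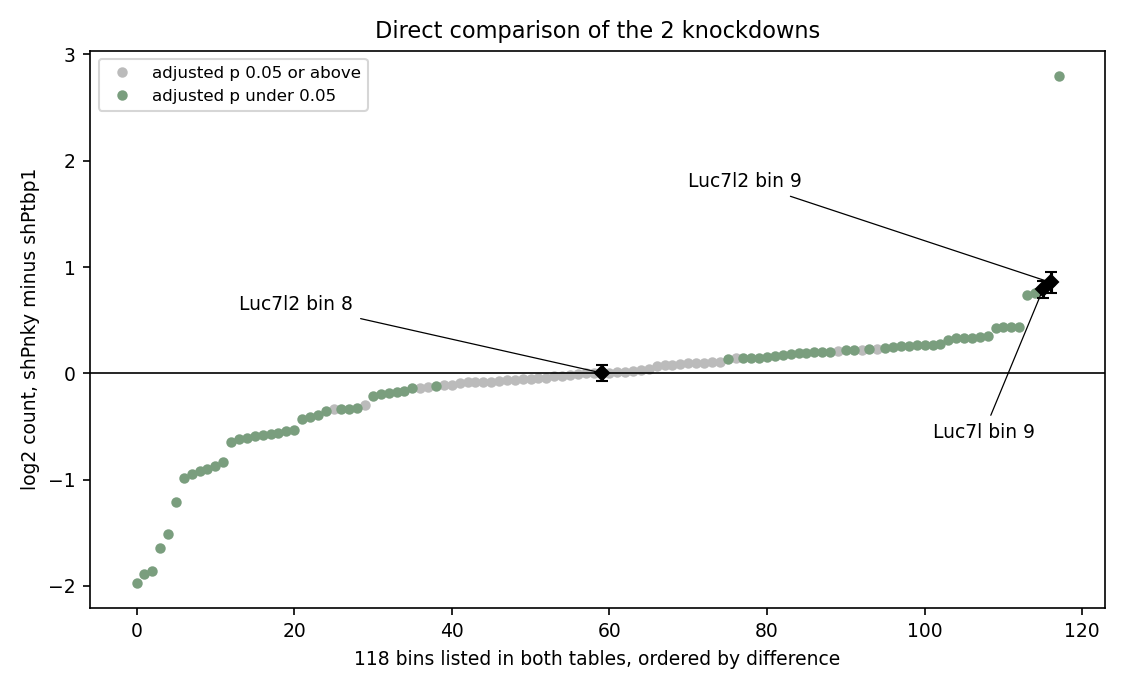
Difference in log2 count between shPnky and shPtbp1 (edgeR estimate) for the 118 bins listed in both tables, in order of size, with green points for an adjusted p under 0.05. The 3 Luc7-like bins are black diamonds with bars of 2 SE, where the SE was back-calculated from the F statistic. Their values are 0.79 for Luc7l bin 9, 0.85 for Luc7l2 bin 9 and 0.004 for Luc7l2 bin 8.

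Among 118 other genes reported from 5 lists of splicing factors, 1 was listed for shPnky and 9 for shPtbp1. For shPnky it was Syncrip, an hnRNP-like protein also called hnRNP Q, whose leading bin, that with the smallest adjusted p, is listed in the authors' deposited table with lower usage (unsuffixed bin, log2 fold -0.06). For shPtbp1 the usage of the leading bin was higher in 5 and lower in 4. The third Luc7-like gene, Luc7l3, was among the higher ones (unsuffixed bin, log2 fold 0.06, adjusted p = 4.51e-06 in the authors' deposited table), with 7768 and 7291 control reads against 7239 and 7011 for shPtbp1. All 3 Luc7-like genes were thus among the 602 genes listed for shPtbp1. Luc7l and Luc7l2 are members that were taken from the listed rows, so nothing is read from this count.

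The other higher leading bins for shPtbp1 were those of Ptbp2 (bin 4, log2 fold 0.18), the neuronal paralog of Ptbp1, Hnrnpd (0.04), Ptbp1 (0.03) and Sf1 (bin 12, 0.02), the branch point binding protein, in the authors' deposited table. The lower ones were Rbm4 (bin 1, log2 fold -0.09), Hnrnpab (bin 1, -0.07), Syncrip (-0.05) and Hnrnpul2 (bin 13, -0.03) in the authors' deposited table. Higher and lower mean usage here, not abundance. In scaled counts the leading bins with higher usage differed from shCtrl by -2.14 (Ptbp1), -0.49 (Hnrnpd), -0.40 (Sf1), -0.14 (Luc7l3) and 1.13 (Ptbp2) on the log2 scale. The unsuffixed bin of Ptbp2 was also listed, with lower usage (log2 fold -0.05) and a scaled count difference of 0.63. Of these 118 genes, Syncrip alone was listed in both tables: its unsuffixed bin had 12931 and 11484 reads (shCtrl), 12703 and 8562 (shPnky) and 8714 and 8625 (shPtbp1).

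By list, 3 of 11 genes of U1 and 5′ splice site recognition were listed in either table, 1 of 23 SR proteins and their kinases, 5 of 24 hnRNP genes, 5 of 45 cell-type-regulated RNA-binding proteins and 1 of 21 core spliceosome genes. The 6 members are counted in these lists. The number of their genes that the authors tested is not known here, so these counts show no enrichment.

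**Figure D5:**
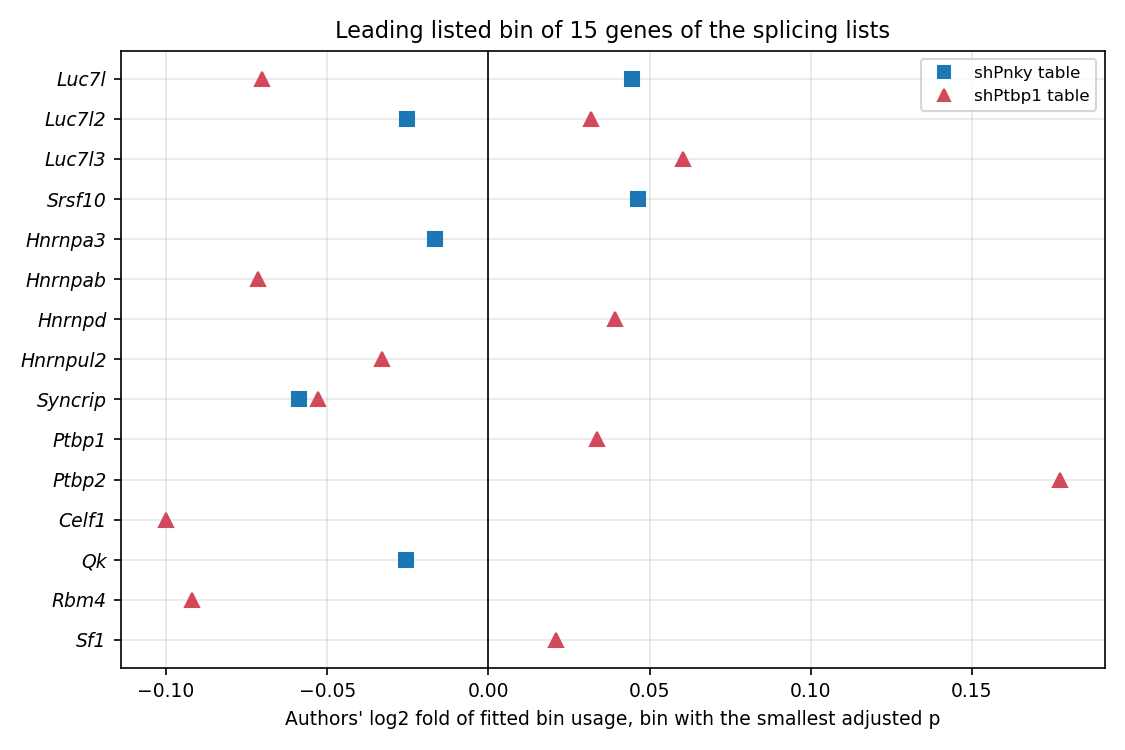
The authors' log2 fold of usage for the leading bin of each of the 15 reported genes of the splicing lists, with squares for shPnky and triangles for shPtbp1. Luc7l and Luc7l2 have symbols on both sides of 0, and both Syncrip symbols lie below 0, at -0.06 and -0.05.

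The bins whose TMM-scaled log2 counts over the 6 libraries correlated best with those of the members were found among the 118 shared bins. For Luc7l2 bin 9 they were Luc7l bin 9 (Pearson r = 0.976), the unsuffixed bin of the neuronal membrane glycoprotein gene Gpm6a (0.973) and bin 7 of the tropomyosin gene Tpm1 (0.972). For Luc7l bin 9 they were Tpm1 bin 7 (r = 0.991), Ncaph2 bin 19 (0.977), of a condensin subunit, and Luc7l2 bin 9. For Luc7l2 bin 8 they were 2610005L07Rik bin 1 (r = 0.994), bin 27 of the kinesin gene Kif1b (0.971) and bin 1 of the kinase gene Dclk1 (0.944). Pearson r takes no account of the size of a change. The reads of 2610005L07Rik bin 1 were 1012 and 999 (shCtrl), 536 and 211 (shPnky) and 332 and 280 (shPtbp1). This is a larger fall in proportion than that of Luc7l2 bin 8. Those of Tpm1 bin 7 were 495 and 410 (shCtrl), 732 and 469 (shPnky) and 104 and 64 (shPtbp1). The 6 points are 3 groups of 2 libraries and share their scaling, so the r values describe likeness in shape only.

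Transcript models of GENCODE M21, matched by symbol, list isoforms marked for nonsense-mediated decay in 3 of the 6 genes: Luc7l2 (3 of 13 transcripts), Luc7l (1 of 9) and Qk (1 of 6). Retained-intron transcripts are annotated in 4 of 6, the same 3 genes and Hnrnpa3. Over the 652 of 702 listed genes that matched, 34.4% had a decay isoform and 67.2% a retained-intron transcript. The bins carry no coordinates in the tables and the build named is mm9, so no bin was assigned to such an isoform.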

How the data were processed

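RNA-seq of 6 libraries, grouped by title into shCtrl, shPnky and shPtbp1 with 2 each, was used as 2 deposited tables. Per the submitters' processing notes TopHat2 2.0.10, Cuffdiff 2.1.1 and build mm9 were used, in roles that are not stated. The counting program, bin annotation and DEXSeq version are given in none of the sources used here. Per the file headers, each row holds raw counts of 4 libraries, a p-value before and after adjustment by the authors, and a log2 fold of fitted usage. The deposited fitted usage, dispersion and statistic are scores of the authors' model, and the deposited mean signal equals the mean of the 4 counts.

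Bin numbers were read from row names. The numbers of tested bins were recovered from p and adjusted p. Scaled counts used TMM, with 0.5 added. The direct comparison was planned in edgeR 4.0.16 (R 4.3.3): glmQLFTest and, for genes with at least 2 shared bins, diffSpliceDGE, on all 6 libraries, with Benjamini-Hochberg adjustment at 0.05. On simulated data with a log2 change of 0.5, the count test recovered 20 of 20 changed bins among 118 and called 1 of 98 others. The usage test recovered 11 of 12 among 65 bins and called 0 of 17 bins in unchanged genes. The simulation used a single fixed dispersion and as many rises as falls. In the data 74 of 118 bins were called, so it does not show how scaling and error rates hold with that many changes. Chi-square per degree of freedom between the libraries of a group was 2.42 to 7.62, above sampling noise, so all were kept as separate libraries.

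The members and lists were chosen with earlier results of these data known. Named genes were every member bin, each listed gene of 5 splicing lists (124 genes) with its leading bin, and the 3 bins most like each shared member bin; an item of the lists is not reported here. Other settings tried were a threshold of 0.001, a minimum mean count of 50, DESeq2 1.42.0 size factors or its Wald test, raw counts, a replicate block, the 2 knockdowns alone and leaving out each library.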

Additional observations from a re-analysis of the deposited data

Results flagged for a closer look

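Luc7l and Luc7l2 are given here because the effects of the 2 hairpins on some of their shared bins differed in the direct test of shPnky against shPtbp1. This does not single them out: 62.7% of the 118 shared bins passed the same count test, and the bins had been listed with opposite signs against shCtrl, which favours a difference. The log2 difference in reads was 0.855 for Luc7l2 bin 9 and 0.789 for Luc7l bin 9 (edgeR adjusted p = 8.59e-06 and 6.33e-06), with both shPnky libraries above both shPtbp1 libraries, whereas the reads of Luc7l2 bin 8 did not pass (log2 difference 0.004, edgeR adjusted p = 0.951). Relative to the pair of bins 8 and 9 alone, the log2 difference in usage was 0.726 for Luc7l2 bin 9 and -0.125 for Luc7l2 bin 8 (edgeR diffSpliceDGE adjusted p = 4.24e-07 and 0.0339). The bin 8 call was lost with the replicate block (edgeR adjusted p = 0.0573), with the knockdowns alone (0.069) and in 4 of 6 fits without 1 library (0.0584 to 0.0976). Groups of 2 libraries were too small for a check of single outlying libraries.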

How the results depend on the processing

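All 15 scaled-count differences from shCtrl kept their direction with DESeq2 size factors, with raw counts and without each library; when 1 library was left out, Qk ranged from -0.17 to -0.06, Luc7l bin 4 from -0.21 to -0.09, Celf1 bin 11 from 0.10 to 0.22 and Hnrnpa3 bin 10 from -0.08 to -0.06. Hnrnpa3 bin 10 was -0.11 with DESeq2 size factors and -0.04 with raw counts, against -0.07. The sizes shifted by at least the pooled SD within groups in 4 of 15 with DESeq2 size factors and in 8 of 15 with raw counts. For shPnky, Luc7l2 bin 9 was 0.065 with DESeq2 size factors, against 0.099. Luc7l bin 9 was 0.20 with DESeq2 size factors and 0.26 with raw counts, against 0.23. Of the listed member bins, the counts at an adjusted p under 0.001 were 6 of 7 for shPnky and 7 of 8 for shPtbp1, and a mean count of at least 50 kept all of them. In the direct count test, 63 to 77 bins passed without 1 library, 75 with DESeq2 size factors, 70 with the DESeq2 Wald test and 73 with the knockdowns alone, against 74. Luc7l bin 9 and Luc7l2 bin 9 passed under every one of these settings, with differences of 0.75 to 0.83 and 0.80 to 0.90 when 1 library was left out. Luc7l2 bin 8, which was not called, had differences of -0.046 (without the first shPnky library) to 0.050 when 1 library was left out, with a negative sign also without the second shPtbp1 library (-0.026), and of -0.0027 with the knockdowns alone; the cause was not tested. In the usage test, 11 to 19 bins passed without 1 library, against 18, the fewest (11) without the first shPnky library. The call of Luc7l2 bin 8 was also lost with the knockdowns alone (edgeR adjusted p = 0.069).

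Whether libraries with the same replicate number belong together is not known. Their deviations correlated at -0.047 (shCtrl and shPnky), 0.22 (shCtrl and shPtbp1) and 0.0095 (shPnky and shPtbp1) over 117 bins. With 2 libraries a group, and bins that were already called, these values cannot decide it. With the number as a replicate block, 71 bins passed the count test and 16 the usage test, and Luc7l2 bin 8 no longer passed for usage (edgeR adjusted p = 0.0573). Depth limits Celf1 bin 1 most, at 75 to 144 reads per library. Without coordinates, no bin could be placed in an exon.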
